A study of Mus musculus with 20 samples.

Results

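The 8 genes described here are the mouse sialidases Neu1, Neu2, Neu3 and Neu4, the lysosomal beta-galactosidase Glb1 with its paralogs Glb1l and Glb1l2, and Ctsa, the lysosomal partner protein of Neu1 and Glb1. They were chosen by gene symbol from the 54532 genes of the deposited count table, and all 8 passed the filter on low counts that left 18336 genes for testing. Messenger RNA was sequenced from single brain hemispheres of mice of 4 genotypes, with 5 libraries each. The genotypes were a double knockout of Glb1 and Neu3 (DKO), a knockout of Glb1 alone (Glb1KO), a knockout of Neu3 alone (Neu3KO) and wild type (WT). The sources used here did not give the design of the knockout alleles, the background strain, the age or the sex of the mice, and WT mice were described as healthy animals from The Jackson Laboratory. Each library carried its own animal identifier, but the labels did not state that libraries came from separate animals, so p-values measure the spread between these libraries.

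Sialidases remove terminal sialic acid from glycoproteins and gangliosides, and beta-galactosidase removes the terminal galactose that GM1 ganglioside exposes. Loss of the human GLB1 enzyme causes GM1 gangliosidosis, in which GM1 accumulates in neurons, and in the mouse a sialidase can also act on GM1 and turn it into its asialo form GA1. In the lysosome NEU1 depends on cathepsin A, the product of Ctsa, for its stability and activity, and beta-galactosidase joins the same complex.

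Total counts per library ran from 15162311 to 25145806. By the first letter of their identifiers, whose meaning is not stated, DKO held 2 E and 3 W libraries, Glb1KO 2 E and 3 L, Neu3KO 1 E and 4 W, and WT 5 E. WT replicate 1 stood apart on the second principal component, at -49.9 against -13.8 to 18.1 in the other libraries, and 2.45% of its reads were mitochondrial, against 3.26% to 4.86% elsewhere. The brain label was matched by neuron markers, which were abundant in every library with summed levels of 5276 to 6854 CPM (counts scaled to library size with TMM factors). Beside the genotypes moved whole lists of cell type markers: 10 of 10 activated microglia markers were higher and 10 of 10 mature oligodendrocyte markers lower in DKO and in Glb1KO than in WT. By the same test, described below, 14.0% of all genes were higher and 15.1% lower in DKO. In Glb1KO these shares were 1.75% and 2.21%. Summed activated microglia markers reached 930.5 to 1104 CPM in DKO, 181.2 to 237.3 CPM in Glb1KO, 74.5 to 91.6 CPM in Neu3KO and 62.3 to 72.8 CPM in WT. Mature oligodendrocyte markers summed to 3660 to 4833 CPM in DKO, 3610 to 4111 CPM in Glb1KO, 5846 to 6551 CPM in Neu3KO and 5714 to 6530 CPM in WT, and reactive astrocyte markers to 4268 to 5073 CPM in DKO, 478 to 665 CPM in Glb1KO, 233 to 286 CPM in Neu3KO and 229 to 300 CPM in WT.

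The promoters of the 3 genes of the group that were higher in DKO than in WT are shown because their start regions differ in a motif known from lysosomal genes. RefSeq promoter windows, 250 bases before to 50 bases after a start site on GRCm38.p6, were found for 7 of the 8 genes, all but Glb1l2. Capitals mark the letters TCACGTGA, the core of the CLEAR element that TFEB and related factors bind.
Ctsa (chr2:164833523-164833822, plus strand): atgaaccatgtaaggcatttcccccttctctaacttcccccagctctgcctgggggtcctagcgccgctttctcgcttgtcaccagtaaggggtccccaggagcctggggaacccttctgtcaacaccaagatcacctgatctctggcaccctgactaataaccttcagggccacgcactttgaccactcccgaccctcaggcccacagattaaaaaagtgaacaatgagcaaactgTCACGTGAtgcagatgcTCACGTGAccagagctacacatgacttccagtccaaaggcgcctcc
Neu1 (chr17:34931003-34931302, plus strand): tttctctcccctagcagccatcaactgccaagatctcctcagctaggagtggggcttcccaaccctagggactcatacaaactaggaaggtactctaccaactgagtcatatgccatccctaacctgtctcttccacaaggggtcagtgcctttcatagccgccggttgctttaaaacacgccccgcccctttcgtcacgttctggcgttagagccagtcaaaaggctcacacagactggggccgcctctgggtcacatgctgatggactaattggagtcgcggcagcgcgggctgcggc
Glb1l (chr1:75210706-75211005, minus strand): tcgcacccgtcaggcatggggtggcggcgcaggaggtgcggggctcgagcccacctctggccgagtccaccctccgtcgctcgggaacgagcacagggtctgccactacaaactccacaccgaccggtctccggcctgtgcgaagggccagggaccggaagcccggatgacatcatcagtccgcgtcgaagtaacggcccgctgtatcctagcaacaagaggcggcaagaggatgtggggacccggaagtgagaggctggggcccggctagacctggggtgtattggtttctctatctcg
The window at the second annotated Ctsa start held TCACGTGA at 2 places, the first base of one lying 13 bases before the start and that of the other 4 bases after it. The windows of Neu1 and Glb1l held neither these letters nor the shorter E-box CACGTG that is nested in them. Glb1 had a single CACGTG, 48 bases before its start, and the other windows, including that of the first Ctsa start, had none. On either strand, TCACGTGA occurred in 0.974% and CACGTG in 7.15% of the 32851 mouse promoter windows of the same length. The related M-box TCATGTG, which does not overlap the others, occurred in 3.77% of all windows and at 1 place in that Ctsa window, its first base 21 bases after the start. A match describes the letters only, and a window without a match says nothing of what binds there.

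The targeted genes were measured first. Glb1 (ENSMUSG00000045594, chr9:114401076-114474898, plus strand, GRCm38) had 2.39, 4.32, 5.31, 4.25 and 3.72 CPM in DKO and 2.80, 4.56, 3.27, 3.98 and 2.30 CPM in Glb1KO, against 19.0, 21.6, 21.0, 21.8 and 19.3 CPM in Neu3KO and 20.7, 18.2, 21.8, 20.003 and 20.3 CPM in WT. Every library of both genotypes labelled as lacking Glb1 lay far below every library of the other genotypes. The mean was 19.8% of WT in DKO and 16.7% of WT in Glb1KO (exact two-sided permutation p = 0.00794 each, the smallest that 5 against 5 libraries allow, adjusted p = 0.0159 over 6 tests of targeted genes). DKO and Glb1KO kept 356 and 289 Glb1 reads over their 5 libraries. A gene-level count does not show which exons these reads came from. Of Glb1 exon sequence 165 bases, 5.5%, are shared with Tmppe on the same strand, which had 10.3 ± 0.839 CPM in DKO, 12.98 ± 1.29 CPM in Glb1KO and 11.6 ± 2.08 CPM in WT (SD, n = 5 each).

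Neu3 (ENSMUSG00000035239, chr7:99811439-99828417, minus strand), the plasma membrane sialidase that prefers gangliosides, was low in all genotypes and its counts did not separate the labelled knockouts. It had 2.91, 2.07, 2.63, 4.31 and 2.97 CPM in DKO and 2.45, 2.84, 3.30, 3.26 and 2.48 CPM in Neu3KO. In the genotypes with an intact Neu3 gene it had 3.85, 3.18, 4.88, 4.30 and 4.08 CPM in Glb1KO and 2.32, 4.46, 3.69, 5.53 and 3.23 CPM in WT. The ranges overlapped in each pair of genotypes, and the lowest WT value was that of replicate 1. Neu3 stood at 77.4% of WT in DKO (exact permutation p = 0.23), at 74.4% of WT in Neu3KO (p = 0.151) and at 73.4% of Glb1KO in DKO (p = 0.0635, adjusted p = 0.0952). Without WT replicate 1 the exact permutation p for Neu3KO against WT was 0.0238. For DKO against Glb1KO it was 0.0159 without DKO replicate 4 and 0.0397 without Glb1KO replicate 2. These p-values were not adjusted, and they were picked for lying under 0.05 from runs that each left out 1 library. A count over the whole gene does not show whether the reads cover the altered part of Neu3, so it is no check of these labels, and below Neu3KO and DKO stand for the libraries labelled so.

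**Figure D1:**
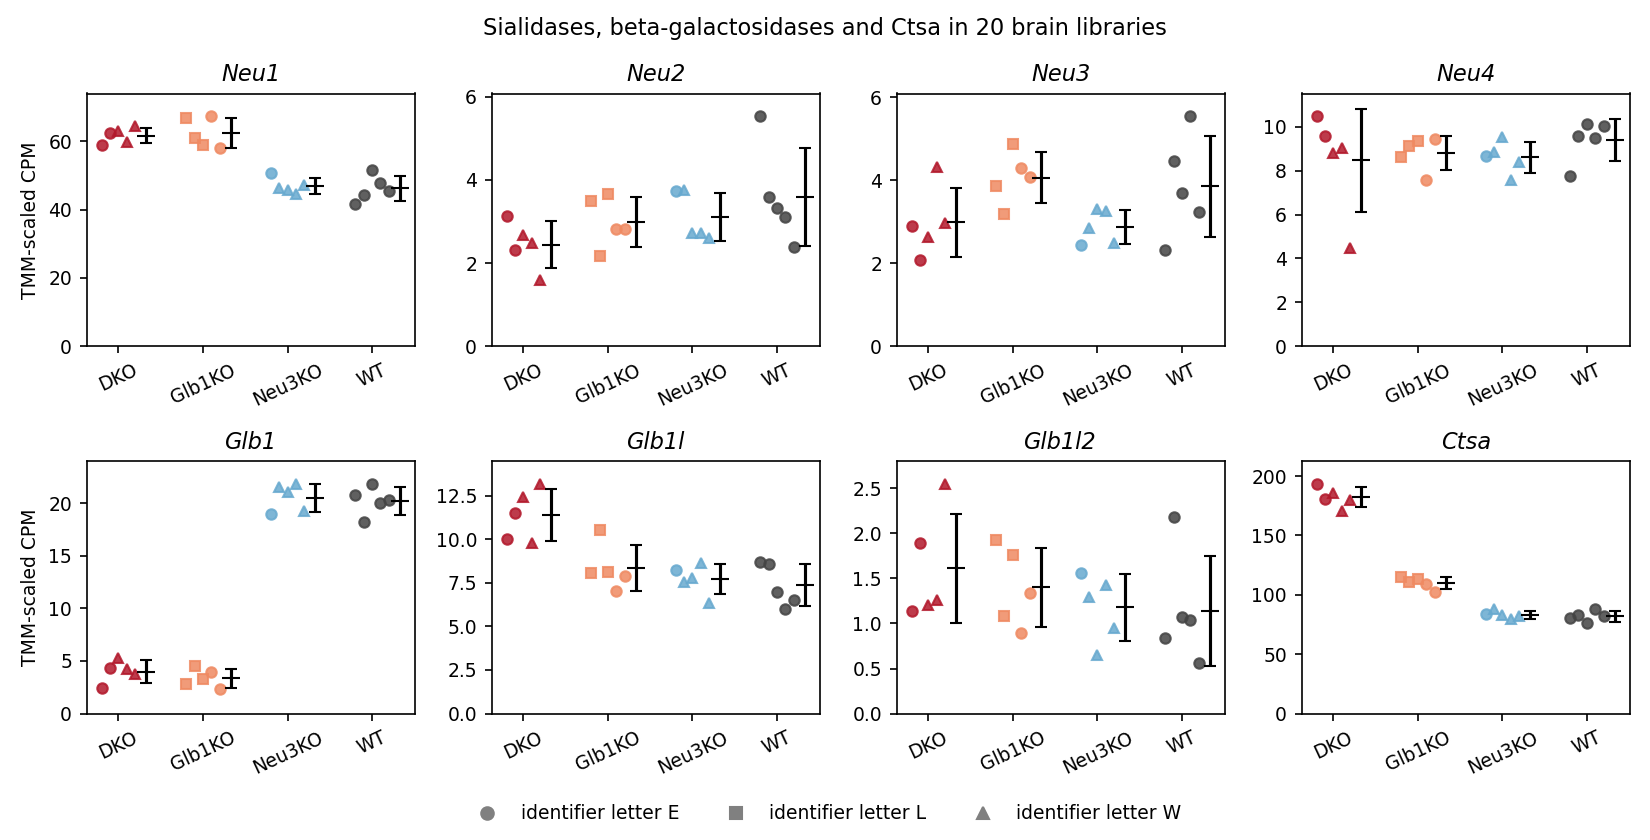
TMM-scaled CPM (y axes, linear from 0) of the 8 genes in each library (points, marker shape by identifier letter) of DKO, Glb1KO, Neu3KO and WT, with mean and SD in black (n = 5). Ctsa steps down from DKO (171 to 193 CPM) over Glb1KO (102 to 115 CPM) to Neu3KO and WT (75.9 to 88.4 CPM), while Neu1 lies at 58.0 to 67.3 CPM in both DKO and Glb1KO, above every Neu3KO and WT library.

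Compared per length, Ctsa and Neu1 were the most abundant genes of the group in every genotype, and Glb1 followed them where its gene was intact. In deposited FPKM, Ctsa averaged 38.4 ± 1.76 in DKO, 23.2 ± 1.07 in Glb1KO, 17.5 ± 0.665 in Neu3KO and 17.2 ± 0.928 in WT (SD, n = 5 each). Neu1 averaged 16.4 ± 0.582 FPKM in DKO, 16.6 ± 1.18 in Glb1KO, 12.5 ± 0.597 in Neu3KO and 12.3 ± 1.002 in WT. The ranges of Ctsa, Neu1 and the next gene were separate in every genotype. In WT, Glb1 followed at 6.65 FPKM, then Neu4 at 2.01, Neu2 at 1.37, Glb1l at 1.23 and Neu3 at 1.14 FPKM, the last 4 each overlapping its neighbour in this order. In DKO, Glb1l at 1.91 and Neu4 at 1.82 FPKM stood above Glb1 at 1.32, Neu2 at 0.935 and Neu3 at 0.885 FPKM, again with overlap between neighbours. Glb1l2 was lowest in every genotype, at 0.177 FPKM in DKO, 0.154 in Glb1KO, 0.129 in Neu3KO and 0.125 in WT, and separate from the gene above it.

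Neu1 thus made up most of the sialidase transcripts. Its share of the summed FPKM of the 4 sialidases was 81.9% ± 3.54 in DKO, 79.6% ± 2.28 in Glb1KO, 76.2% ± 1.41 in Neu3KO and 73.0% ± 1.96 in WT (SD, n = 5 each). The sum was 20.04 ± 0.282 FPKM in DKO and 20.8 ± 1.12 in Glb1KO, against 16.4 ± 0.704 in Neu3KO and 16.8 ± 1.11 in WT, and the lowest DKO or Glb1KO library, at 19.6, lay above the highest of the others, at 18.3. Among the beta-galactosidase genes the sum was 3.41 ± 0.531 FPKM in DKO and 2.67 ± 0.434 in Glb1KO, against 8.20 ± 0.520 in Neu3KO and 8.01 ± 0.387 in WT. Glb1l, a paralog whose substrate is not well established, held 56.5% of that sum in DKO and 52.7% in Glb1KO, against 15.8% in Neu3KO and 15.4% in WT. These shares describe transcripts, and the activity of the enzymes was not measured.

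**Figure D2:**
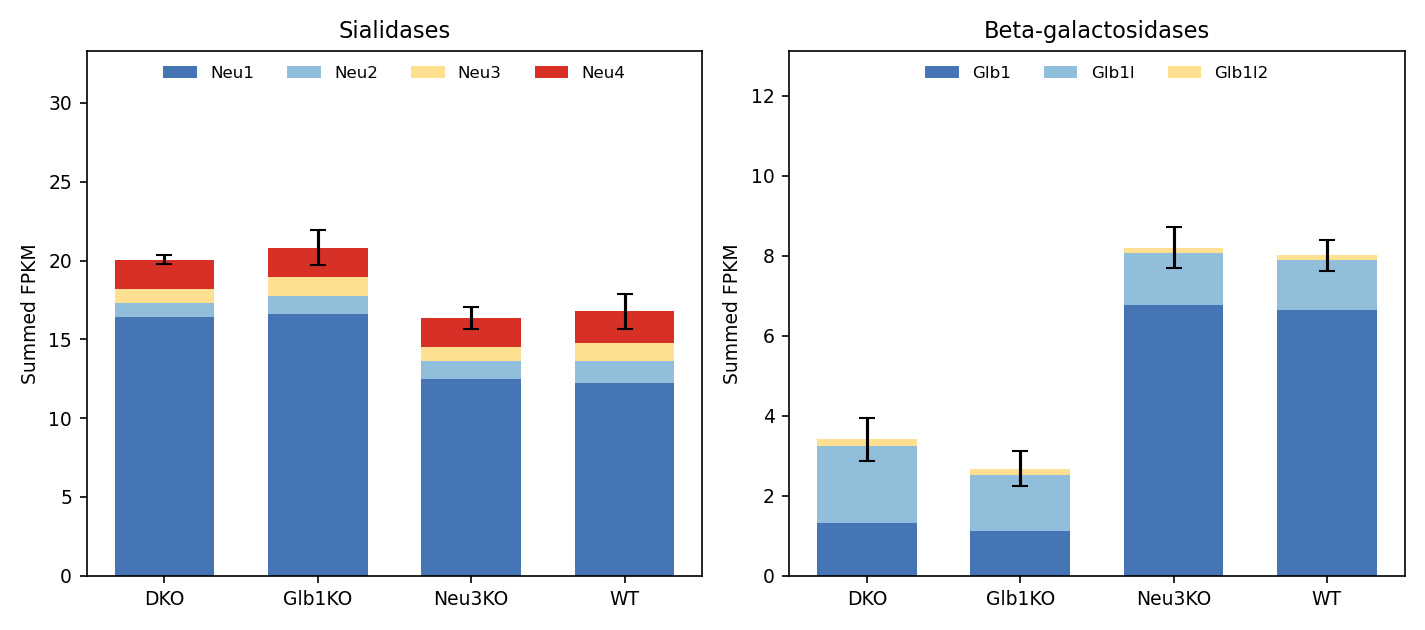
Deposited FPKM (y axes, linear from 0) summed over the 4 sialidases (left) and the 3 beta-galactosidase genes (right) in DKO, Glb1KO, Neu3KO and WT, stacked by gene means, with the SD of the sum over 5 libraries as the error bar. Neu1 fills 73.0% to 81.9% of each sialidase bar, and the Glb1 segment falls to 1.32 FPKM in DKO and 1.12 FPKM in Glb1KO, against 6.65 FPKM in WT.

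The study's design names the comparison of mice lacking both targeted genes with controls. In DKO brains Ctsa, Glb1l and Neu1 were higher and Glb1 and Neu2 lower than in WT, and Neu3, Neu4 and Glb1l2 did not pass the test. The test was edgeR's quasi-likelihood F test, with a gene called at an adjusted p (Benjamini-Hochberg over all genes tested) under 0.05. By this rule 5 of the 8 genes were called, 3 higher and 2 lower, beside 29.0% of all genes tested (14.0% higher and 15.1% lower). Without the targeted Glb1 and Neu3, 3 of 6 were higher and 1 lower. The median log2 fold change of the 6 genes that were not targeted was 0.46, beside 0.00 over all genes.

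Ctsa (ENSMUSG00000017760, chr2:164832873-164841032, plus strand), which codes for cathepsin A, the protein that protects NEU1 and beta-galactosidase, had the largest increase. It had 193, 181, 186, 171 and 180 CPM in DKO and 115, 111, 113, 109 and 102 CPM in Glb1KO, against 83.5, 87.9, 83.02, 79.3 and 81.9 CPM in Neu3KO and 80.7, 83.03, 75.9, 88.4 and 81.9 CPM in WT. All DKO libraries lay above all Glb1KO libraries, and these above all Neu3KO and WT libraries, which overlapped. Ctsa was 2.22-fold higher in DKO than in WT (log2 fold change 1.15 ± 0.052 SE, edgeR adjusted p = 6.92e-19). It kept its call under every alternative tried, with log2 fold changes of 1.13 to 1.202. In a bulk sample, more cells that express a gene and more RNA per cell cannot be told apart. The activated microglia and reactive astrocyte markers described above moved with Ctsa, and their part in the result was not tested. Ctsa shares 17.4% of its exon bases with genes on the opposite strand, and the strand setting of the counting was not given. Of these, Pltp had 50.4 ± 5.80 CPM in DKO and 54.1 ± 6.12 CPM in WT and was not called (log2 fold change -0.10, adjusted p = 0.382), and Neurl2 had 2.34 ± 0.354 CPM in DKO and 1.08 ± 0.195 CPM in WT and was called higher (log2 fold change 1.11, adjusted p = 0.00538). How many reads of Ctsa came from the shared exons was not tested.

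Neu1 (ENSMUSG00000007038, chr17:34931253-34935953, plus strand), the lysosomal sialidase, shares no exon bases with another gene. It had 59.0, 62.3, 62.9, 59.7 and 64.3 CPM in DKO and 66.7, 60.9, 59.0, 67.3 and 58.0 CPM in Glb1KO. In Neu3KO it had 50.6, 46.4, 45.7, 44.6 and 47.1 CPM, and in WT 41.7, 44.4, 51.6, 47.7 and 45.5 CPM. The DKO and Glb1KO libraries overlapped each other and all lay above the Neu3KO and WT libraries. Neu1 was 1.34-fold higher in DKO than in WT (log2 fold change 0.42 ± 0.062 SE, adjusted p = 2.93e-06) and kept its call under every alternative.

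Glb1l (ENSMUSG00000026200, chr1:75198236-75210813, minus strand) had 10.03, 11.5, 12.4, 9.77 and 13.2 CPM in DKO and 8.06, 10.6, 8.14, 7.05 and 7.91 CPM in Glb1KO. In Neu3KO it had 8.22, 7.55, 7.78, 8.61 and 6.36 CPM, and in WT 8.69, 8.55, 6.97, 6.02 and 6.51 CPM. All DKO libraries lay above all WT and Neu3KO libraries, whereas 1 Glb1KO library reached into the DKO range. The difference of DKO from WT was 1.55-fold (log2 0.63 ± 0.13 SE, adjusted p = 0.000293) and was called under every alternative. Of its exon bases 10.5% are shared with other genes, most of them with Ankzf1 on the opposite strand, which had 21.9 ± 2.60 CPM in DKO and 23.2 ± 3.25 CPM in WT and was not called (adjusted p = 0.578).

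Neu2 (ENSMUSG00000079434, chr1:87509889-87597845, plus strand), the cytosolic sialidase, had 3.13, 2.31, 2.68, 2.47 and 1.59 CPM in DKO against 5.53, 3.59, 3.34, 3.10 and 2.38 CPM in WT. The groups overlapped, and the highest WT value was that of replicate 1. Its lower level in DKO passed the test narrowly (log2 fold change -0.56 ± 0.22 SE, adjusted p = 0.0484). The call was lost in 16 of 19 alternatives, among them the fit without WT replicate 1 (log2 fold change -0.34, adjusted p = 0.254). In the authors' deposited table it had a log2 fold change of -0.56 and an adjusted p of 0.0951. Neu2 shares 123 exon bases with Ngef on the opposite strand, which was far more abundant and also lower in DKO, at 168 ± 14.8 CPM against 201 ± 10.6 CPM in WT (adjusted p = 0.003). How many reads of Neu2 came from Ngef was not tested. Hindbrain markers also summed to less, 20.4 to 40.8 CPM in DKO against 62.4 to 101 CPM in WT. Of 5 tested, 4 were lower, beside 15.1% of all genes. This was not particular to DKO, as they summed to 13.85 to 31.6 CPM in Glb1KO and 13.86 to 73.2 CPM in Neu3KO. In Glb1KO 3 of 5 were lower than in WT, beside 2.21% of all genes. The part of hindbrain tissue in this or any other comparison with WT was not tested.

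Neu4 (ENSMUSG00000034000, chr1:94020451-94028334, plus strand), a sialidase of intracellular membranes, had 10.5, 9.58, 8.82, 9.03 and 4.46 CPM in DKO against 7.74, 9.58, 10.1, 9.48 and 10.03 CPM in WT. Apart from DKO replicate 5, the groups lay together, with a log2 difference of -0.15 (95% interval -0.445 to 0.145, adjusted p = 0.484). Glb1l2 (ENSMUSG00000036395, chr9:26763044-26806468, minus strand), the other paralog of Glb1, ran from 1.14 to 2.55 CPM in DKO and from 0.566 to 2.18 CPM in WT. Its 144 reads in DKO and 101 in WT left a wide interval of -0.172 to 1.17 around a log2 difference of 0.50 (adjusted p = 0.279). Without WT replicate 2, its highest WT library, it passed narrowly (log2 0.88, adjusted p = 0.0478). Smaller differences of this gene were not detectable at this depth.

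**Figure D3:**
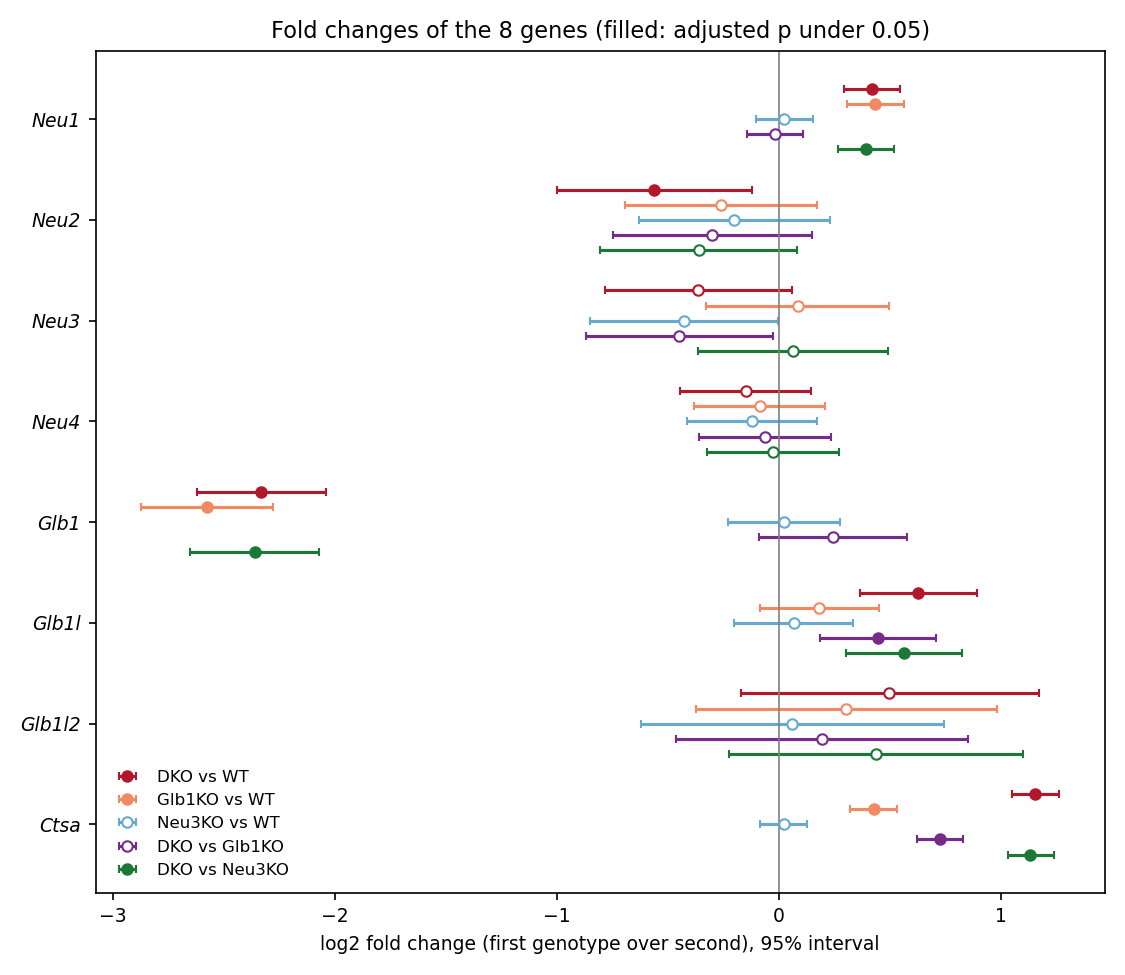
Log2 fold changes of the 8 genes (x axis) in 5 comparisons, the first genotype over the second, with 95% intervals from the edgeR fit; filled points have an adjusted p under 0.05. Ctsa has separate values of 1.15 in DKO and 0.43 in Glb1KO over WT, whereas those of Neu1, 0.42 and 0.43, coincide.

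With Glb1 alone knocked out, Ctsa and Neu1 rose by nearly the same fold. In Glb1KO brains Ctsa was 1.34-fold (log2 0.43 ± 0.052 SE, adjusted p = 4.04e-07) and Neu1 1.35-fold (log2 0.43 ± 0.062 SE, adjusted p = 9.77e-06) higher than in WT, with no overlap between the genotypes for either gene. These were 2 of the 6 genes that were not targeted, and with Glb1 itself 3 of 8 genes were called, beside 3.96% of all genes tested (1.75% higher and 2.21% lower). The other 5 were not called. Among them Glb1l had a log2 difference of 0.18 (95% interval -0.0868 to 0.449, adjusted p = 0.543), Neu2 had 2.16 to 3.66 CPM in Glb1KO against 2.38 to 5.53 CPM in WT, and Neu4 had 7.57 to 9.44 CPM in Glb1KO against 7.74 to 10.1 CPM in WT. This comparison and the one of DKO use the same WT libraries.

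With Neu3 alone knocked out, none of the 8 genes passed the test. Ctsa averaged 83.1 ± 3.13 CPM in Neu3KO and 82.0 ± 4.51 CPM in WT, and Neu1 46.9 ± 2.30 CPM in Neu3KO and 46.2 ± 3.76 CPM in WT (SD, n = 5 each). The intervals of the log2 difference, -0.0849 to 0.127 for Ctsa and -0.104 to 0.152 for Neu1, exclude changes of the size seen in Glb1KO. None of the 8 was called by edgeR, beside 0% of all 18336 genes, of which 1105 had an unadjusted p under 0.05, and DESeq2 called 2 of the 36698 genes it was run on. Among the 8, only Neu3 itself was under 0.05 before adjustment (log2 fold change -0.43, edgeR adjusted p = 0.823).

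Between the genotypes that both lack Glb1, Ctsa and Glb1l were higher in DKO than in Glb1KO, and Neu1 was not called. Ctsa was 1.65-fold higher in DKO than in Glb1KO (log2 0.73 ± 0.051 SE, adjusted p = 3.06e-13). The log2 difference of Neu1 was -0.02, with a 95% interval of -0.142 to 0.109 (adjusted p = 0.901). Glb1l was 1.36-fold higher (log2 0.45 ± 0.13 SE, adjusted p = 0.0134), with overlap at 1 Glb1KO library. The Glb1l call was lost with the identifier letter as a term (adjusted p = 0.0688), among libraries with identifiers starting with E (0.175) and without DKO replicate 5 (0.0511). These 2 genes were the ones called of 8, beside 15.7% of all genes tested (8.41% higher and 7.29% lower).

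Between the genotypes labelled as lacking Neu3, DKO and Neu3KO, 4 of the 8 genes were called, beside 25.1% of all genes tested (12.3% higher and 12.8% lower). Without the targeted Glb1 and Neu3, 3 of 6 were called, all higher. Ctsa (2.19-fold, log2 1.13 ± 0.052 SE, adjusted p = 1.18e-18), Neu1 (1.31-fold, log2 0.39 ± 0.062 SE, adjusted p = 8.54e-06) and Glb1l (1.48-fold, log2 0.56 ± 0.13 SE, adjusted p = 0.00114) were higher in DKO than in Neu3KO, and Glb1 was lower (log2 -2.36). Among libraries with identifiers starting with E, where Neu3KO has a single library that is assumed to vary like the others, the calls of Neu1 (log2 0.27, adjusted p = 0.347) and Glb1l (log2 0.39, adjusted p = 0.52) were lost. Among those starting with W, with 3 DKO and 4 Neu3KO libraries, all 4 calls were kept, at log2 0.45 for Neu1 (adjusted p = 0.000183) and 0.65 for Glb1l (adjusted p = 0.00478).

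Whether the difference that goes with Glb1 loss depended on the Neu3 genotype was tested as an interaction, the difference DKO minus Neu3KO less the difference Glb1KO minus WT. Ctsa was the 1 gene of 8 called, beside 6.84% of all genes tested (3.96% positive and 2.88% negative), with an interaction of 0.70 ± 0.073 SE on the log2 scale (adjusted p = 1.06e-08). It was called in all alternatives, at 0.68 to 0.80. Neu1 had an interaction of -0.04 (95% interval -0.219 to 0.139, adjusted p = 0.871). Glb1l had 0.38 (95% interval 0.00634 to 0.754, adjusted p = 0.255), which did not pass.

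The ratio of Ctsa to Neu1 within a library describes the same counts without any scaling between libraries. Per kilobase of gene length the ratio was 2.59, 2.30, 2.34, 2.26 and 2.21 in DKO and 1.36, 1.45, 1.52, 1.28 and 1.40 in Glb1KO. It was 1.31, 1.5, 1.44, 1.41 and 1.38 in Neu3KO and 1.53, 1.48, 1.16, 1.47 and 1.43 in WT. All DKO libraries lay above all others, while the other 3 genotypes shared a range, with means of 1.40 ± 0.0883 in Glb1KO, 1.41 ± 0.0726 in Neu3KO and 1.41 ± 0.145 in WT (SD, n = 5 each) beside 2.34 ± 0.149 in DKO. The log2 ratio was higher in DKO by 0.73 against WT, 0.74 against Glb1KO and 0.73 against Neu3KO (exact two-sided permutation p = 0.00794 each, the smallest possible, adjusted p = 0.0132 over 5 tests). For Glb1KO against WT the exact p was 0.921. The ratio was chosen after the values of the genes had been seen, so these p-values add no independent support. An interaction of the ratio was not tested.

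**Figure D4:**
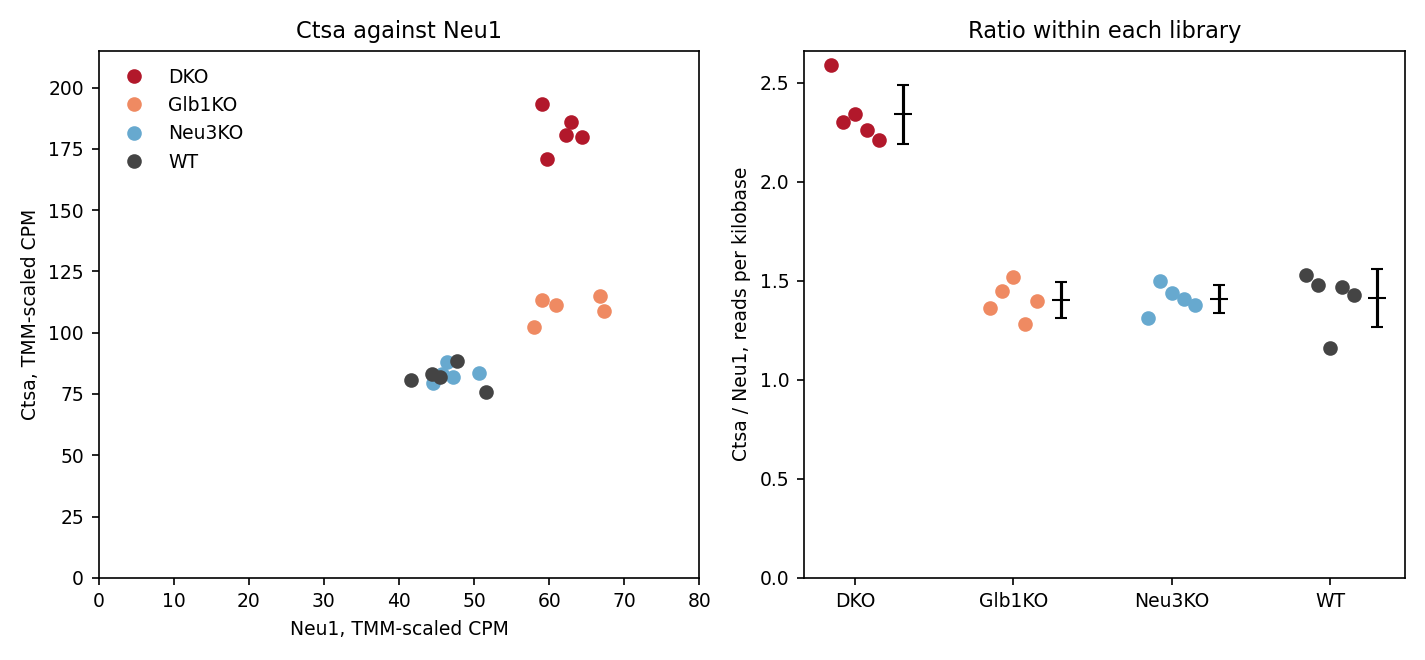
Left, Ctsa against Neu1 in TMM-scaled CPM in each of the 20 libraries, coloured by genotype; right, the ratio of both genes per kilobase of gene length in each library, with mean and SD in black (n = 5; y axis from 0). DKO and Glb1KO libraries share a Neu1 range of 58.0 to 67.3 CPM but differ in Ctsa, and the ratio averages 2.34 in DKO against 1.40 to 1.41 in the other genotypes.

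Other lysosomal genes were taken from a partner list of 10 enzymes, activators and carriers, not all of which act on gangliosides. The list was chosen with earlier results of these data known. In DKO 7 of 10 were higher than in WT and none lower, with a median log2 fold change of 0.66, beside 0.00 over all genes and 14.0% of all genes called higher. In Glb1KO 3 of 10 were higher than in WT (median 0.18), beside 1.75% of all genes, and in Neu3KO 0 of 10, beside 0% of all genes. Hexa, a subunit of a lysosomal hexosaminidase that acts on GM2, had the smallest adjusted p of these genes. Hexa averaged 94.0 ± 15.2 CPM in DKO, 57.4 ± 4.17 in Glb1KO, 43.4 ± 2.22 in Neu3KO and 42.2 ± 2.78 in WT (log2 over WT 1.16 in DKO, adjusted p = 1.6e-13, and 0.44 in Glb1KO, adjusted p = 0.000383). Gm2a, the GM2 activator, rose in both (log2 0.76 in DKO and 0.27 in Glb1KO), as did Asah1, the acid ceramidase (0.66 in DKO and 0.28 in Glb1KO). Galc, the galactosylceramidase, averaged 51.7 ± 2.47 CPM in DKO, 36.1 ± 2.71 in Glb1KO, 34.5 ± 1.86 in Neu3KO and 32.7 ± 2.46 in WT, and was called in DKO (log2 over WT 0.66). Psap, the precursor of the saposins and the most abundant of the list, rose in DKO (1930 ± 117 CPM against 1495 ± 21.7 CPM in WT, log2 0.37, adjusted p = 2.86e-08) and was not called in Glb1KO (log2 0.09, adjusted p = 0.305). Scarb2, a lysosomal membrane protein, had 191 ± 8.55 CPM in DKO and 178 ± 8.84 CPM in WT and was not called (adjusted p = 0.117). Of homeostatic microglia markers, 6 of 10 were higher in DKO and 2 of 10 in Glb1KO than in WT, beside 14.0% and 1.75% of all genes. They summed to 297 to 403 CPM in DKO, 248 to 275 in Glb1KO, 224 to 264 in Neu3KO and 198 to 245 in WT. The part of microglia in the change of the partner list was not tested.

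In DKO against Glb1KO, 8 of the 10 partner genes were higher and none lower (median log2 0.40, beside 8.41% of all genes called higher). In this comparison Hexa (log2 0.71), Gm2a (0.48), Galc (0.52) and Asah1 (0.38) had the smallest adjusted p. Over Neu3KO, DKO had 8 of 10 higher (median 0.59), beside 12.3% of all genes called higher. The interaction was called for 8 of 10, all positive (median over the 10 genes 0.36), beside 3.96% of all genes called positive, at 0.67 for Hexa, 0.44 for Galc, 0.40 for Gm2a and 0.28 for Psap. Among libraries with identifiers starting with E, where Neu3KO has a single library, the median interaction of the 10 genes was 0.37. Their median difference of Glb1KO from WT was 0.14 there. These medians do not show whether the calls of single genes held in those libraries. With the identifier letter as a term, 1 of 10 in place of 3 was called higher in Glb1KO than in WT. Calls over all 18336 genes fell too in that fit, to 315 from 726. Over the 10 genes the interaction ran from -0.15 for Smpd1, the acid sphingomyelinase, which was not called (adjusted p = 0.275), to 0.83 for Galns, a sulfatase (adjusted p = 0.00303). The value of Ctsa (0.70) lay near the upper end of this range, and that of Neu1 (-0.04) lay below every gene of the list but Smpd1.

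**Figure D5:**
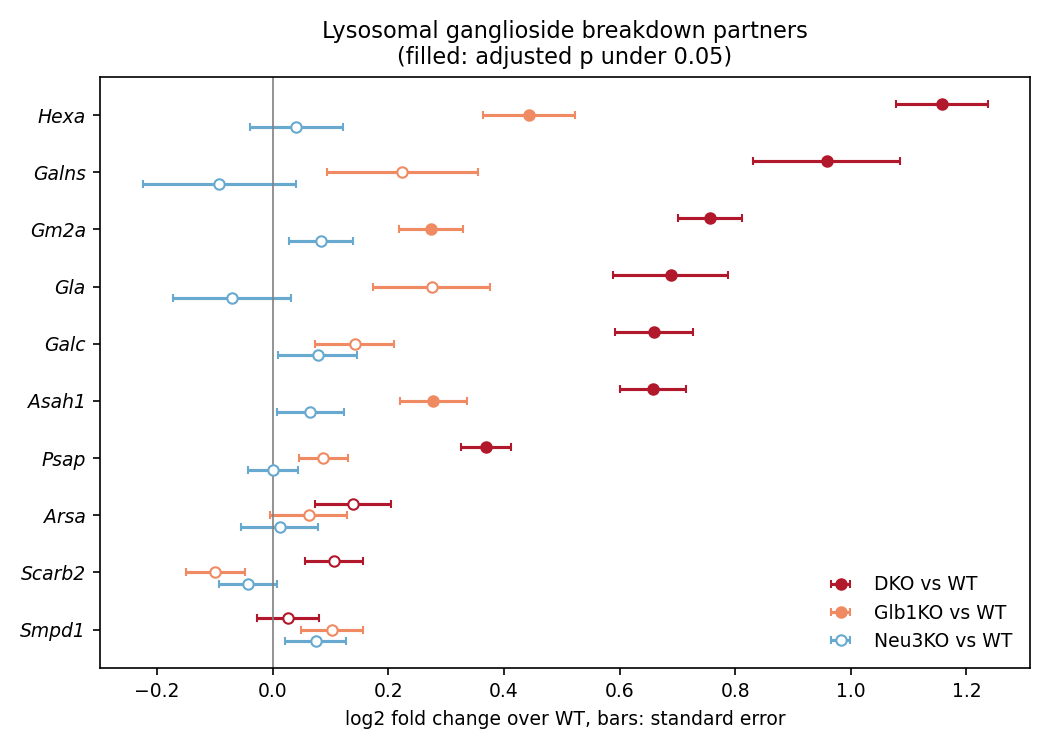
Log2 fold changes over WT (x axis, bars are standard errors from the edgeR fit) of the 10 lysosomal genes of the partner list in DKO, Glb1KO and Neu3KO. Filled points have an adjusted p under 0.05. In DKO 7 of 10 are called, from 0.37 for Psap to 1.16 for Hexa, in Glb1KO 3 of 10 and in Neu3KO none.

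The genes that supply, transfer, transport and release sialic acid, 20 tested of a list of 21, moved in both directions. In DKO 5 were higher and 5 lower than in WT (median log2 -0.02), beside 14.0% of all genes called higher and 15.1% lower. In Glb1KO 1 was higher than in WT and none lower, beside 1.75% and 2.21% of all genes, and in Neu3KO none was called, beside 0% of all genes. Renbp, an epimerase of N-acetylglucosamine, averaged 10.04 ± 1.03 CPM in DKO, 4.93 ± 1.39 in Glb1KO, 3.07 ± 0.536 in Neu3KO and 2.37 ± 0.533 in WT, with log2 fold changes over WT of 2.08 in DKO (adjusted p = 3.94e-11) and 1.06 in Glb1KO (adjusted p = 0.000274). Npl, the lyase that degrades free sialic acid, averaged 7.27 ± 1.19 CPM in DKO, 3.49 ± 0.679 in Glb1KO, 2.56 ± 0.0941 in Neu3KO and 2.93 ± 0.196 in WT, and was called in DKO (log2 over WT 1.31) with an interaction of 1.25 (adjusted p = 0.000326). St6gal1, a sialyltransferase of glycoproteins, was also higher in DKO (34.6 ± 2.05 CPM against 24.1 ± 1.84 CPM in WT, log2 0.52, interaction 0.51). Nans, the sialic acid synthase (15.02 ± 1.83 CPM in DKO against 11.2 ± 1.80 CPM in WT, log2 0.43), and Slc17a5, the lysosomal exporter of sialic acid (25.3 ± 1.33 CPM in DKO against 19.5 ± 2.64 CPM in WT, log2 0.38), were higher in DKO than in WT too. Neither was called in DKO against Glb1KO or Neu3KO. In these genotypes Nans averaged 13.25 and 14.28 CPM and Slc17a5 21.62 and 22.37 CPM. Cmas, which activates sialic acid for transfer, had 71.8 ± 5.19 CPM in DKO against 70.1 ± 5.90 CPM in WT and was called in no comparison. St8sia5, a sialyltransferase that extends gangliosides, was lower (45.3 ± 5.73 CPM in DKO against 64.1 ± 1.59 CPM in WT, log2 -0.50, adjusted p = 3.13e-05). St3gal2, which adds sialic acid to gangliosides and is among the most abundant of the list, was lower by a small margin (124 ± 3.26 CPM in DKO against 137 ± 2.87 CPM in WT, log2 -0.14, adjusted p = 0.0191). St8sia3, another sialyltransferase and the second most abundant of the list, had 116 ± 5.47 CPM in DKO, 136 ± 18.2 CPM in Neu3KO and 128 ± 6.94 CPM in WT, and was called lower in DKO against Neu3KO (log2 -0.22, adjusted p = 0.011) but not against WT (adjusted p = 0.105). St3gal1, which sialylates terminal galactose, was lower in DKO than in WT (25.4 ± 3.67 CPM in DKO against 35.9 ± 3.22 CPM in WT, log2 -0.50, adjusted p = 0.000114). It was also lower in DKO than in Neu3KO (32.8 ± 3.35 CPM in Neu3KO, log2 -0.37, adjusted p = 0.00332). Over Glb1KO, DKO had 3 higher and 3 lower, beside 8.41% and 7.29% of all genes. Over Neu3KO, DKO had 3 higher and 6 lower, beside 12.3% and 12.8% of all genes, so that the count of higher genes was near the share over all genes. Among libraries with identifiers starting with E the median log2 difference of DKO from WT was 0.04. A median of genes that move in both directions does not show whether single calls held there. With the identifier letter as a term, 5 were higher and 3 lower in DKO than in WT, and the call of Renbp in Glb1KO was lost. Calls over all 18336 genes fell too in that fit, to 3363 from 5323 in DKO and to 315 from 726 in Glb1KO, each against WT.

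The genes whose log2 CPM most resembled each member over the 20 libraries were taken from 15948 genes with a mean of at least 1 CPM. The libraries share genotype, so the correlation with genotype means removed stands beside each value. For Ctsa these were Mpeg1 (Pearson r = 0.993, and 0.767 with genotype means removed), C4b (0.992 and 0.296) and Ctsd (0.991 and 0.492). C4b has a near-identical copy, so its count is uncertain. For Neu1 they were Mif (0.929 and 0.669), Grina (0.905 and 0.445) and Atp6v1e1 (0.904 and 0.492). For Glb1 they were Tspan2 (0.953 and -0.207), Tbc1d9b (0.952 and -0.127) and Erbb3 (0.949 and 0.369), so that for Tspan2 and Tbc1d9b the positive correlation was not found within genotypes. The other members had lower values, with top genes Lyl1 for Glb1l (0.896 and 0.667), Zfp354b for Neu4 (0.867 and 0.885), Tbx3 for Neu2 (0.813 and 0.796), Rnf182 for Neu3 (0.749 and 0.731) and Tbca for Glb1l2 (0.730 and 0.690). Ctsa and Neu1 had r = 0.763 with each other over all 20 libraries and 0.0436 with genotype means removed.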

How the data were processed

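Polyadenylated RNA of 20 brain libraries was measured, grouped by the genotype in the labels, which also give the replicate numbers. The authors deposited raw counts per gene, which are not normalized, with gene lengths and coordinates, and FPKM of the same libraries. Within each library the deposited FPKM equals the count divided by gene length and a constant that lies at 0.969 to 1.05 times the library total. The log2 fold changes and p-values of DKO against WT that the authors deposited are quoted as theirs, per the file headers. The submitters' processing notes name DESeq2 1.20.0, featureCounts 1.5.0-p3, HISAT2 2.0.5 and fastp as tools and GRCm38 (mm10) as build, with no roles or strand setting. Counting was per gene, so shared exons may split or share reads.

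Counts were tested in R 4.3.3 with edgeR 4.0.16: TMM scaling, the edgeR expression filter (18336 of 54532 genes kept), a robust quasi-likelihood fit of all 20 libraries with a mean per genotype, and two-sided F tests adjusted over all genes tested at 0.05. Standard errors come from the F statistic and 95% intervals from the t distribution with the fit's degrees of freedom. Targeted genes and the Ctsa to Neu1 ratio were compared with exact permutation tests over libraries. Total counts of 15162311 to 25145806 give 101 to 16199 reads per member and genotype. Correlations used log2 CPM with a prior count of 2. Exon overlaps come from GENCODE M21, whose coordinates equal the deposited ones for all 8 genes. The tests were tried on simulated data.

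The members, gene lists and markers were chosen with earlier results of these data known. Some genes of the partner list are not reported here and entered none of its counts, medians or sums. Named genes are the 8 members, for each of 2 pathway lists and each comparison the 2 most abundant genes and the 4 lowest in adjusted p, and 3 co-varying genes per member, of which the first is given for 5 members. Alternatives were other scaling (RLE, library totals), other filters, DESeq2 1.42.0, only the groups compared, the replicate number or identifier letter as a term, libraries of 1 letter and leaving out each library. Added after seeing the data were the ratio with its alternatives and the list counts without WT replicate 1 or by letter.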

Additional observations from a re-analysis of the deposited data

Results flagged for a closer look

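In groups of 5 libraries, 4 of 64 had a lowest value set apart from the rest by Dixon's test, and chance alone gives about 1 in 20. Neu4 stood at 4.46 CPM in DKO replicate 5 and at 7.74 CPM in WT replicate 1. The summed partner list stood at 1934 CPM in WT replicate 1, the library with the lowest share of mitochondrial reads, and the summed sialic acid list at 865.2 CPM in Glb1KO replicate 2.

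The effect of Glb1 loss differed between the libraries labelled as lacking Neu3 and those with Neu3, by the interaction term of edgeR with adjustment over all genes. This held for 1 member, for 8 genes of the partner list and for genes of the sialic acid list, 2 positive and 1 negative. On the log2 scale the interaction was 0.70 for Ctsa (adjusted p = 1.06e-08), 0.83 for Galns, 0.67 for Hexa, 0.48 for Gla, 0.44 for Galc, 0.40 for Gm2a, 0.31 for Asah1, 0.28 for Psap and 0.25 for Scarb2. Among sialic acid genes it was 1.25 for Npl, 0.51 for St6gal1 and -0.41 for St6gal2. With the identifier letter as a term, 7 partner genes and 2 sialic acid genes were called, all positive, so the call of St6gal2 was lost. Calls over all genes were 1111 in that fit, in place of 1255. In libraries with identifiers starting with E, where Neu3KO has 1 library, the median interaction was 0.37 for the partner list and -0.11 for the sialic acid list. Medians do not show whether single calls held.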

How the results depend on the processing

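Ctsa was called against WT in DKO and Glb1KO, in DKO against both single knockouts and in the interaction under every alternative run, as were Neu1 in DKO and Glb1KO against WT, Glb1l in DKO against WT and, by edgeR, the loss of Glb1. The number of the 8 genes called in DKO against Glb1KO was 1 in place of 2 with the identifier letter as a term and in the E libraries alone (identifiers starting with E), and 1 to 3 when 1 library was left out. In DKO against Neu3KO it was 2 in place of 4 in the E libraries, where Neu3KO has 1 library, and 4 in the W libraries. These fits hold fewer libraries or degrees of freedom, and the cause was not tested. With the genotype means of each gene removed, the log2 CPM of same-numbered libraries of compared genotypes correlated at -0.129 to 0.0646. None was over 0.1, so the replicate numbers were not taken to pair the libraries. With the numbers as a replicate block, exact sign-flip tests of Glb1 gave differences of -16.2 CPM (DKO against WT), -16.82 CPM (Glb1KO against WT) and -16.54 CPM (DKO against Neu3KO) with p = 0.0625, the smallest that 5 pairs allow, and the block changed no call of a member in edgeR. Leaving out 1 library, the difference of Neu3 ran from -1.41 to -0.85 CPM in DKO against Glb1KO and from -1.37 to -0.56 CPM in Neu3KO against WT. The unadjusted exact permutation p fell under 0.05 without DKO replicate 4, Glb1KO replicate 2 or WT replicate 1.

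The log2 differences that changed sign were all small and uncalled. With the identifier letter as a term these were Glb1 (-0.18), Neu2 (0.0284) and Neu4 (0.0852) in Neu3KO against WT, Glb1l2 (-0.0278) in Glb1KO against WT and Neu4 (0.14) in DKO against Glb1KO. In the E libraries they were Glb1 (-0.0871) and Neu2 (0.0549) in Neu3KO against WT, Glb1l2 in DKO against Neu3KO (-0.0389), Glb1KO against WT (-0.026) and the interaction (-0.0129), and Neu4 in DKO against Glb1KO (0.25), Neu3KO (0.22) and WT (0.11). With library totals they were Neu1 in DKO against Glb1KO (0.0167), the Neu3 interaction (0.0185) and Neu4 in DKO against Neu3KO (0.0226). When 1 library was left out, values of Neu3KO against WT ran from -0.00264 to 0.0522 for Ctsa, -0.00938 to 0.0568 for Glb1, -0.00759 to 0.0698 for Neu1, -0.11 to 0.44 for Glb1l2 and -0.31 to 0.0168 for Neu2. Those of DKO against Glb1KO ran from -0.0374 to 0.33 for Glb1l2, -0.037 to 0.0159 for Neu1 and -0.15 to 0.10 for Neu4. Those of DKO against Neu3KO ran from -0.11 to 0.17 for Neu3 and -0.11 to 0.14 for Neu4. Neu4 ran from -0.23 to 0.0136 in DKO against WT and Neu3 from -0.0517 to 0.25 in Glb1KO against WT. Interactions ran from -0.24 to 0.30 for Glb1l2, -0.32 to 0.0201 for Neu2, -0.19 to 0.12 for Neu3 and -0.0244 to 0.22 for Neu4. The log2 Ctsa to Neu1 ratio ran from -0.0779 to 0.0219 in Glb1KO and -0.0718 to 0.0278 in Neu3KO against WT, and the correlations of Glb1 with Tspan2 and Tbc1d9b turned to -0.207 and -0.127 with genotype means removed. In the E libraries the ratio was higher in DKO by 0.87 against Glb1KO and 0.90 against Neu3KO, where the exact p cannot go below 0.333.

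Over all genes, calls in DKO against WT fell to 3363 with the letter term and 2583 in the E libraries, against 5323. In Glb1KO against WT they were 315 and 323 against 726, in DKO against Glb1KO 1203 and 901 against 2879, in DKO against Neu3KO 882 (E) and 3724 (W) against 4606 and in the interaction 183 (E) against 1255. In Neu3KO against WT the count of 0 became 26 without a filter, 3 with only the groups compared, 2 with DESeq2 and 1 in the E libraries, without WT replicate 1 or without WT replicate 2. Neu2, Neu3 and Glb1l2, with 101 to 350 reads per genotype, limit what differences could be seen. Other scaling and filters, DESeq2 and the fits of the compared groups changed no call of a member but that of Neu2. Without DKO replicate 4, edgeR also called Neu3 in DKO against Glb1KO (adjusted p = 0.0498).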
